A study of Rattus norvegicus with 40 samples.

Results

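Transcription factors that build and maintain the intestinal epithelium were followed in whole intestine and whole lung of fetal rats. The members were the caudal homeobox factors Cdx1 and Cdx2, the nuclear receptors Hnf4a and Hnf4g, the zinc finger factors Gata4, Gata5 and Gata6, and the Krüppel-like factor Klf5. They were found by gene symbol in the platform annotation, which gave 14 probe sets (groups of short oligonucleotides that read 1 transcript) for 7 of the 8 listed genes, out of 14217 genes in all. Hnf4g had no probe set under its symbol and is not analysed here. Klf5 had 4 probe sets, Hnf4a 3, Gata4 and Gata6 2 each, and Cdx1, Cdx2 and Gata5 1 each. Where a gene had several, the brightest on average stands for it, and the others are described beside it.

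The 40 arrays were Affymetrix expression arrays of Wistar rat embryos, 10 each for intestine at gestational day 20 (E20), intestine at day 16 (E16), lung at day 20 and lung at day 16. All embryos were untreated as far as the labels say, and were taken by caesarean section from timed matings. The design text gives 10 embryos an age, while each age has 10 arrays of each organ, so both organs may come from the same embryos. The reported fit treats the arrays as independent. The labels say that tissue of several siblings was frozen, so p-values measure the spread between these arrays. Age cannot be told apart from litter if an age came from 1 litter. Intestine RNA was labelled from 1 µg and lung RNA from 2 µg, which means that organ and RNA amount cannot be told apart either. By its title the study asked how these organs prepare for birth.

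CDX2 is the homeobox factor that sets intestinal identity in the endoderm; its loss in mouse endoderm lets foregut programmes appear in the gut, and CDX1 overlaps with it. HNF4A and HNF4G are nuclear receptors that act with CDX2 on the genes of absorptive cells, above all those of lipid handling and the brush border. GATA4 marks the proximal small intestine and GATA6 the whole gut epithelium, while all 3 of GATA4, GATA5 and GATA6 also work in heart, mesothelium and mesenchyme. KLF5 is a factor of many epithelia, of proliferating crypt cells and, in mouse, of the maturing fetal lung.

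All values are log2 of the deposited intensities. The median of all log2 values was 7.89 and the lower quartile 6.59, and values near or below that quartile are called dim here. A gene is said to have risen or fallen where limma's adjusted p was under 0.05 over the 14217 genes and the difference was at least 1 on the log2 scale, which is 2-fold. Array medians lay between 220 and 264 intensity units. The intestinal epithelial markers Cdh17, Vil1, Fabp2 and Lgals4 averaged 13.18 to 13.72 in E20 intestine, 7.10 to 9.06 in E16 intestine, 5.99 to 6.47 in E20 lung and 6.26 to 6.67 in E16 lung. The lung markers Nkx2-1, Sftpc, Sftpb and Sftpa1 averaged 6.09 to 6.50 in E20 intestine and 6.002 to 6.63 in E16 intestine, against 12.59 to 13.25 in E20 lung and 7.97 to 8.63 in E16 lung. Some arrays stood high within their group in genes typical of neighbouring tissue, called transcripts of that tissue here. Whether neighbouring tissue or the organ itself made them was not tested. Heart genes (7 measured of 8 listed) averaged 11.48 and 11.90 in E16 lung replicates 5 and 9 and 8.75 and 8.85 in replicates 2 and 7, against 7.19 to 7.66 in the other E16 lung arrays. They averaged 7.64 to 8.78 in E20 lung, 7.18 to 7.47 in E20 intestine and 6.78 to 7.53 in E16 intestine, and the mean of the cardiac factor Nkx2-5 was dim in all 4 groups. Liver genes (9 measured of 10 listed) stood at 9.34 in E16 intestine replicate 9, 8.94 and 9.08 in E20 lung replicates 1 and 8, and 9.49, 9.44 and 9.85 in E20 intestine replicates 1, 2 and 9. Pancreas genes (8 measured of 10 listed) stood at 7.68, 7.89 and 7.68 in E16 intestine replicates 6, 8 and 9. Results without such arrays are given for Hnf4a in intestine, and for Gata4 and Gata5 in lung and between organs at E16. Further values without them stand in the closing section.

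In the intestine 6 of the 7 measured factors were higher at E20 than at E16 and none was lower, with Cdx2 and Hnf4a each rising by more than 4 log2 units. Of all genes 8.79% rose and 6.26% fell in this comparison, 15.1% in all. For 6 of the 7 factors the ages did not overlap, as for 37.6% of all genes. The median change of the 7 factors was 3.05 log2 units, against -0.086 over all genes. In the lung 1 of the 7 rose, Klf5, and none fell, where 7.15% of all genes rose and 4.63% fell, 11.8% in all. Ages did not overlap in lung for Gata5 and Klf5, as for 31.1% of all genes. The median change of the factors was -0.042, against -0.0064 over all genes.

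**Figure D1:**
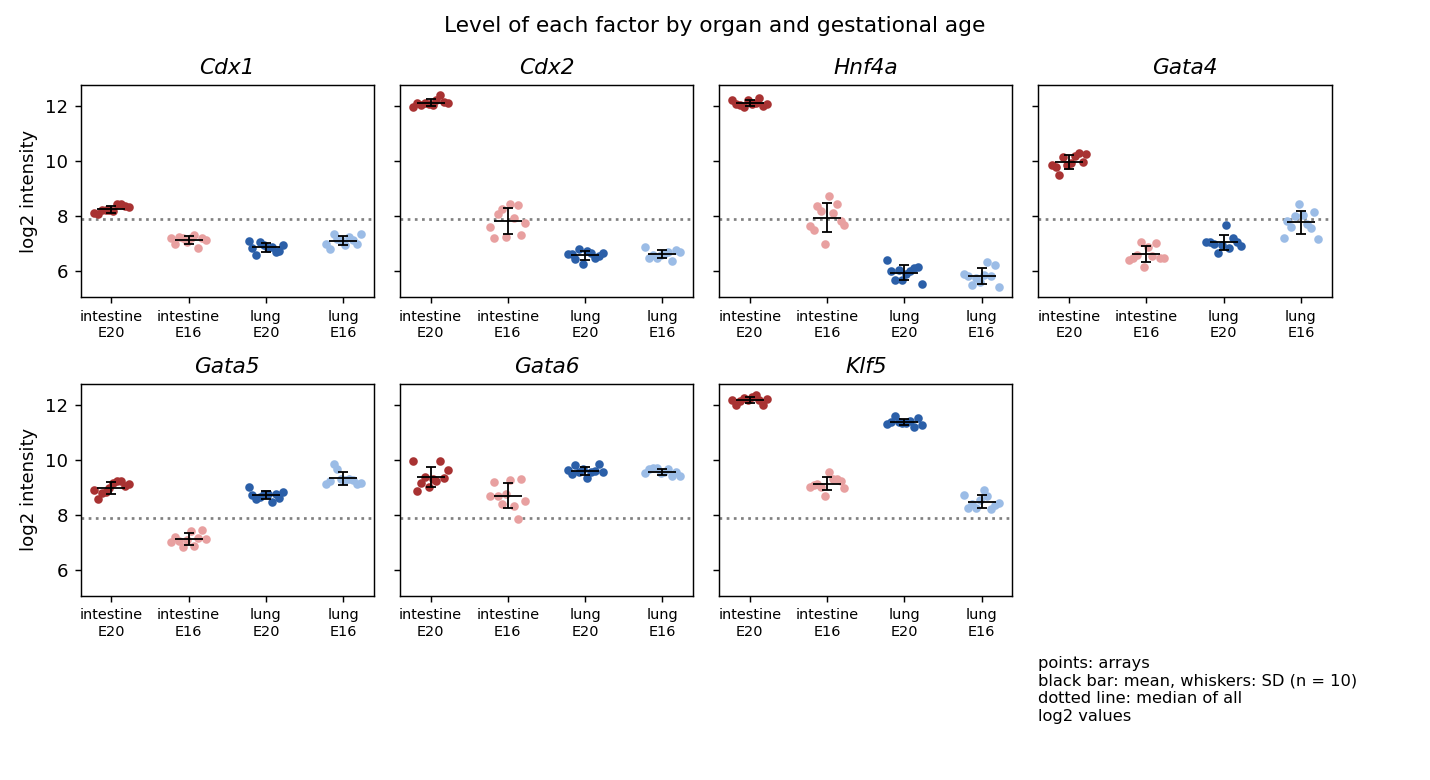
Log2 intensity of each factor on every array (points) in E20 intestine, E16 intestine, E20 lung and E16 lung, with the mean as a black bar, the SD as whiskers (n = 10 arrays each) and the median of all log2 values (7.89) as a dotted line. Cdx2 and Hnf4a are above 11.9 in every E20 intestine array and below 6.9 in every lung array, Gata6 lies between 7.84 and 9.95 throughout, and Klf5 is higher at E20 than at E16 in both organs.

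Cdx2 had the largest rise with age of the members. It lay between 11.94 and 12.41 (median 12.11) in E20 intestine and between 7.20 and 8.42 (median 7.84) in E16 intestine. In lung it lay between 6.23 and 6.80 (median 6.62) at E20 and between 6.36 and 6.88 (median 6.61) at E16. The E20 intestine arrays stood apart from all others by more than 3 log2 units, and E16 intestine lay above all lung arrays, whose ages overlapped. The rise in intestine was 4.31 (SE 0.12, limma adjusted p = 8.51e-31), which is 19.8-fold. In lung the change was -0.042 (95% interval -0.28 to 0.19, adjusted p = 0.765), at a dim level.

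Cdx1 followed the same direction at a much smaller size. It lay between 8.05 and 8.43 (median 8.21) in E20 intestine and between 6.84 and 7.32 (median 7.18) in E16 intestine, without overlap. In lung it lay between 6.59 and 7.08 (median 6.85) at E20 and between 6.79 and 7.34 (median 7.11) at E16, where the ages overlapped. Its rise in intestine was 1.12 (SE 0.068, limma adjusted p = 1.75e-18), just past the 2-fold minimum, and against a 2-fold change as the null it was not called (adjusted p = 0.355). In lung the change was -0.25 (SE 0.068, adjusted p = 0.00143), under the 2-fold minimum. Cdx1 exceeded the median of all values on all E20 intestine arrays and on no other array. At E16 it did not differ between organs beyond its spread (0.030, 95% interval -0.11 to 0.17, adjusted p = 0.704).

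The promoter windows of both CDX genes are shown because Cdx2 and Cdx1 moved in the same direction and CDX factors are known from mouse work to act on CDX genes. Windows were matched by symbol for 5 of the 8 members. They come from RefSeq, build GRCr8, and run from 250 bases before to 50 after the start of the gene, 5′ to 3′ along its strand. The capitals mark the letters TTTAT, the core bound by CDX factors, on either strand.
Cdx2, chr12:12762654-12762953, plus strand: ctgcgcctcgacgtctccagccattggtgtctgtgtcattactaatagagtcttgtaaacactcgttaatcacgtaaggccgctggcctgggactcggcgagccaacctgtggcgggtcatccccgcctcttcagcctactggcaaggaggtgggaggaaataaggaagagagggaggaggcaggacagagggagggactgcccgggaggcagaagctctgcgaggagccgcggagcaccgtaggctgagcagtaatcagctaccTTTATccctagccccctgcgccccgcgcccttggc
Cdx1, chr18:56761250-56761549, minus strand: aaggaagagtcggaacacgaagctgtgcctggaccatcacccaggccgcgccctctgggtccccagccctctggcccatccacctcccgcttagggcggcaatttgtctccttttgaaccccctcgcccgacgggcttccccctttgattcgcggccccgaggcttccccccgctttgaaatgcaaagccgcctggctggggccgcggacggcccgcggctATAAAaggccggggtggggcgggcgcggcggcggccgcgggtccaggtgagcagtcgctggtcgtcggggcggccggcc
Each window held 1 such run. In Cdx2 it began at position 15, counting the first base after the 250 upstream bases as 0. In Cdx1 it began at position -29 on the opposite strand and overlaps the letters TATAAA of a TATA box. Of 33469 promoter windows of this length 42.5% hold TTTAT on either strand, so the match is common and describes the letters only.

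Hnf4a, the nuclear receptor of absorptive cells, had nearly the profile of Cdx2. It lay between 11.95 and 12.27 (median 12.08) in E20 intestine and between 6.97 and 8.71 (median 7.96) in E16 intestine. In lung it was dim, between 5.51 and 6.39 (median 5.98) at E20 and between 5.40 and 6.33 (median 5.82) at E16. E20 intestine, E16 intestine and lung thus formed 3 levels without overlap, while the lung ages overlapped. The rise in intestine was 4.17 (SE 0.14, limma adjusted p = 3.96e-27), which is 17.99-fold, and the change in lung 0.12 (95% interval -0.16 to 0.41, adjusted p = 0.453). Liver also expresses Hnf4a, and liver genes averaged 8.47 to 9.85 in E20 intestine and 6.58 to 9.34 in E16 intestine. Of these 9 genes 4 rose in intestine, the fibrinogen chain Fga by 3.97, prothrombin (F2) by 3.11, alpha-fetoprotein (Afp) by 2.98 and Serpina1 by 2.90, and their part in the rise of Hnf4a was not tested. Of all genes 8.79% rose in intestine. Albumin (Alb) changed by 1.59 (adjusted p = 0.0994). In E16 intestine replicate 9, with the most liver transcripts of its group, Hnf4a stood at 7.82, below the group median. Hnf4a was second highest of its group (12.22) in E20 intestine replicate 1, where liver genes stood at 9.49. In E20 intestine replicate 2 (liver genes 9.44) Hnf4a stood at 12.05, below the group median. In replicate 9 (liver genes 9.85) it stood at 11.995, second lowest of its group. Without the arrays highest in liver genes within their groups (E20 intestine replicates 1, 2 and 9, E16 intestine replicate 9, and E20 lung replicates 1 and 8) the rise was 4.16 (adjusted p = 5.73e-22). Another set of 7 arrays was chosen for liver, pancreas or mesothelium transcripts (replicates 9 of E20 intestine, 6, 8 and 9 of E16 intestine, and 1, 6 and 8 of E20 lung), and without these the rise was 4.35 (adjusted p = 4.03e-24).

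The 3 probe sets of Hnf4a differed in size. The one used, 1392969_at, changed by 4.17 in intestine, 1382496_at by 1.18 (SE 0.072, adjusted p = 3.78e-18 over all probe sets) and 1369289_at by 0.48 (SE 0.084, adjusted p = 3.67e-06). The set 1382496_at averaged 8.17 in E20 intestine and 6.99 in E16 intestine, and 1369289_at 7.91 and 7.43 in the same order, so both stayed much lower at E20 than the brightest set. All 3 were higher at E20 than at E16, and all 3 were higher in intestine than in lung at both ages. With the probe sets averaged, the rise was 1.94 (adjusted p = 6.18e-26). Which transcript forms each set reads was not tested.

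Hnf4a transcripts start at alternative promoters, and RefSeq holds a window for each. They are shown because the probe sets of Hnf4a differed so much in the size of their change. Capitals mark AGATAA, letters bound by GATA factors.
Hnf4a upstream window, chr3:172605970-172606269, plus strand: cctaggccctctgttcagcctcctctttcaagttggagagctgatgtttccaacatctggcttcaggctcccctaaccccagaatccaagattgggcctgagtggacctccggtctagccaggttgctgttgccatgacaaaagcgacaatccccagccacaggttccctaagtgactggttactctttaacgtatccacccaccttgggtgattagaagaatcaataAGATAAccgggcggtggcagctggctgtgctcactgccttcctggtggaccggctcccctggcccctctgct
Hnf4a downstream window, chr3:172641586-172641885, plus strand: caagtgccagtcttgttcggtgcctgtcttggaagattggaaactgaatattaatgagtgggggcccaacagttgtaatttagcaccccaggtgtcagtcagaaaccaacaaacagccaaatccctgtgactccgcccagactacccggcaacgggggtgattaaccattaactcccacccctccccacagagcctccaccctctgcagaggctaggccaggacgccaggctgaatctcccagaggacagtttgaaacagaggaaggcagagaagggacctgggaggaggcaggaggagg
The upstream window held AGATAA once, at position -22, and 11.6% of all windows hold it on either strand. Neither window held TTTAT or CAAAGTC, a core bound by HNF4 factors that 4.61% of windows hold. CACCC, letters bound by KLF factors and held by 54.9% of windows, occurred 2 times in the upstream and 4 times in the downstream window. The windows of Gata6 and Klf5 held 5 and 2 runs of CACCC and none of the other motifs.

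The GATA factors did not behave alike, and lung carried part of their signal. Gata4, the factor of proximal small intestine, lay between 9.47 and 10.28 (median 9.93) in E20 intestine and between 6.13 and 7.05 (median 6.51) in E16 intestine. In lung it lay between 6.67 and 7.65 (median 7.005) at E20 and between 7.16 and 8.45 (median 7.76) at E16. Its order was therefore E20 intestine, E16 lung, E20 lung and E16 intestine, with overlap between the lung ages and between E20 lung and E16 intestine. The rise in intestine was 3.37 (SE 0.13, limma adjusted p = 8.10e-25), which is 10.3-fold. In lung the change was -0.73 (SE 0.13, adjusted p = 6.81e-06), under the 2-fold minimum.

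Heart and mesothelium express Gata4, and their transcripts varied between lung arrays. The highest E16 lung values of Gata4 were 8.45 in replicate 5 and 8.14 in replicate 9, the arrays with the most heart transcripts, and replicates 6 and 4, without them, stood at 8.03 and 7.99. Without replicates 5 and 9 the lung change was -0.60 (adjusted p = 1.00e-04), and without replicates 2, 5, 7 and 9 it was -0.55. Without the 7 arrays chosen for liver, pancreas or mesothelium transcripts, E20 lung replicate 6 among them, it was -0.84, and with both Gata4 probe sets averaged -0.35. Mesothelium genes (5 measured of 6 listed) averaged 7.74 to 9.54 in E20 lung and 8.29 to 8.88 in E16 lung, and 7.61 to 8.87 in E20 intestine and 9.34 to 9.91 in E16 intestine. The highest E20 lung value of Gata4, 7.65 in replicate 6, came from the array with the highest mesothelium level of its group. In intestine 3 of the 5 mesothelium genes fell and Msln rose (1.14), where 6.26% of all genes fell and 8.79% rose, while Gata4 rose. The part of either tissue in the lung values was not tested.

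The second Gata4 probe set did not follow. The set 1370293_at averaged 7.50 in E20 intestine and 7.72 in E16 intestine (change -0.22, SE 0.079, adjusted p = 0.0163), and 7.46 in E20 lung and 7.43 in E16 lung (0.035, adjusted p = 0.730). Its group means spanned less than 0.3 log2 units around a level below the median of all values. With both sets averaged the rise in intestine was 1.58 (adjusted p = 5.22e-21). The Gata4 results thus rest on 1387894_at.

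Gata5, a factor of heart and of gut endoderm and mesoderm, lay between 8.58 and 9.24 (median 9.01) in E20 intestine and between 6.82 and 7.45 (median 7.09) in E16 intestine. In lung it lay between 8.47 and 8.997 (median 8.72) at E20 and between 9.10 and 9.82 (median 9.27) at E16. Lung at E16 and E20 and intestine at E20 lay close to each other, with E20 intestine overlapping both lung groups, and E16 intestine lay below them all. The rise in intestine was 1.87 (SE 0.089, limma adjusted p = 5.22e-22), which is 3.66-fold. In lung the change was -0.62 (SE 0.089, adjusted p = 7.31e-08), under the 2-fold minimum although the ages did not overlap, and without E16 lung replicates 5 and 9 it was -0.65. In those replicates Gata5 stood at 9.28 and 9.11, and its highest E16 lung values, 9.82 and 9.67, were in replicates 3 and 4, which carried few heart transcripts. The part of heart or mesothelium in the lung values of Gata5 was not tested.

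Gata6, the GATA factor of the whole gut epithelium and of lung epithelium, had the flattest profile of the 3. It lay between 8.87 and 9.95 (median 9.32) in E20 intestine and between 7.84 and 9.29 (median 8.68) in E16 intestine, with overlap. In lung it lay between 9.34 and 9.85 (median 9.57) at E20 and between 9.40 and 9.71 (median 9.54) at E16. The intestine value at E20 was 0.68 above that at E16 (SE 0.13, adjusted p = 1.44e-05), under the 2-fold minimum, and the lung change was 0.034 (95% interval -0.23 to 0.30, adjusted p = 0.834). The second probe set, 1375613_at, changed by 0.042 in intestine (SE 0.057, adjusted p = 0.545) and by 0.12 in lung (SE 0.057, adjusted p = 0.0758). The spread within intestine was wider than within lung, with an SD of 0.36 at E20 and 0.46 at E16, against 0.15 at E20 and 0.11 at E16 in lung.

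Klf5 was the only measured member that rose in both organs. It lay between 11.98 and 12.35 (median 12.18) in E20 intestine and between 8.66 and 9.54 (median 9.09) in E16 intestine. In lung it lay between 11.18 and 11.58 (median 11.34) at E20 and between 8.20 and 8.91 (median 8.39) at E16. The ages did not overlap in either organ, and at E20 all intestine arrays lay above all lung arrays. The rise was 3.05 in intestine (SE 0.083, limma adjusted p = 1.10e-30) and 2.89 in lung (SE 0.083, adjusted p = 3.63e-29). These are 8.31-fold and 7.44-fold, and the difference between them was 0.16 (95% interval -0.077 to 0.40, adjusted p = 0.232), an interval that holds differences of up to 0.40 log2 units. Of the other sets 1368363_at changed by 2.997 in intestine and 2.98 in lung, and 1385961_at by 3.46 and 2.60. For 1385961_at the difference between organs was 0.86 (95% interval 0.48 to 1.24, limma adjusted p = 1.37e-04 over all probe sets), under the 2-fold minimum but outside the interval of the set used. The faintest set, 1398159_at, changed by 0.70 and 0.32, both under the 2-fold minimum.

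**Figure D2:**
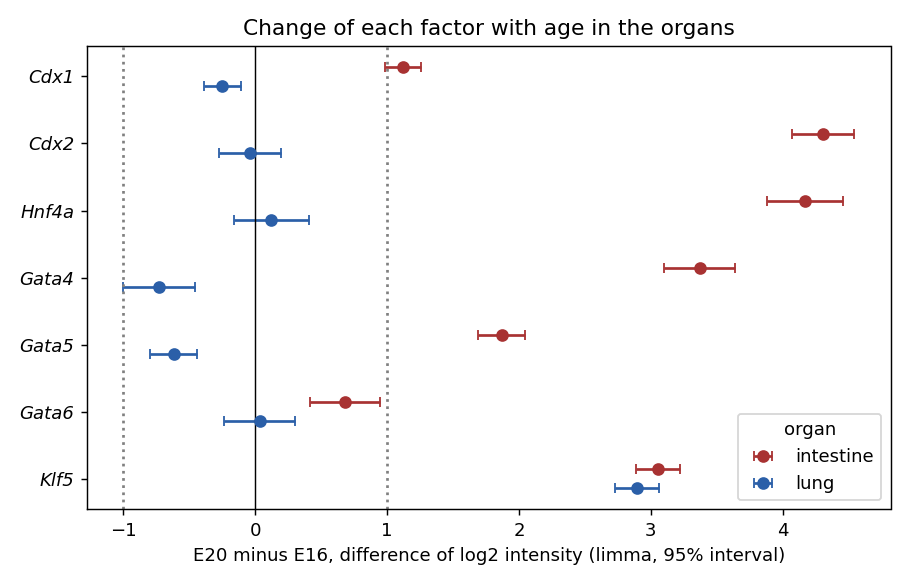
Difference of log2 intensity between E20 and E16 for each factor in intestine (red, upper point) and lung (blue, lower point), from the limma fit with 95% intervals; dotted lines mark the 2-fold minimum. The points of both organs lie side by side for Klf5 (3.05 and 2.89) and furthest apart for Cdx2 (4.31 and -0.042).

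The age changes of intestine and lung were compared directly. For 5 of the 7 factors the change in intestine exceeded that in lung by at least 2-fold and passed the test, where 8.48% of all genes did so in this direction, 9.13% in the other and 17.6% in all. The difference was 4.35 for Cdx2 (SE 0.16, limma adjusted p = 4.54e-25), 4.10 for Gata4 (SE 0.19, adjusted p = 4.49e-22) and 4.05 for Hnf4a (SE 0.20, adjusted p = 5.89e-21). With probe sets averaged it was 1.92 for Gata4 and 1.79 for Hnf4a, both still called and both below Gata5. It was 2.49 for Gata5 and 1.37 for Cdx1, and 0.65 for Gata6 (SE 0.19, adjusted p = 0.00232), under the 2-fold minimum. This comparison uses the same arrays as the separate age changes.

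**Figure D3:**
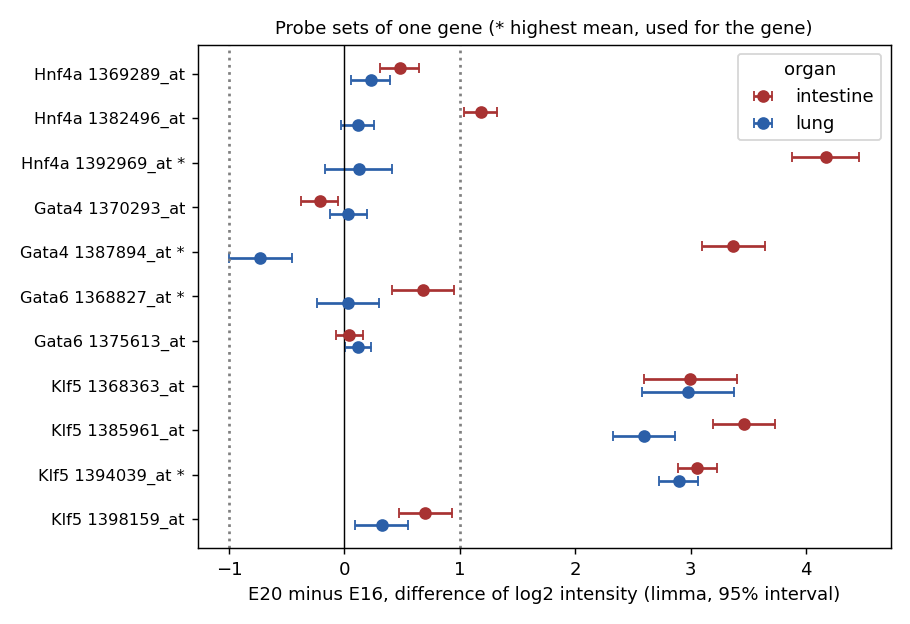
Difference of log2 intensity between E20 and E16 for every probe set of the 4 factors with several sets, in intestine (red, upper point) and lung (blue, lower point), with 95% intervals from the limma fit over all probe sets; the asterisk marks the set used for the gene. The sets of Klf5 all rise past the 2-fold minimum in both organs except the faint 1398159_at (0.70 in intestine). Those of Hnf4a run from 0.48 to 4.17 in intestine and those of Gata4 from -0.22 to 3.37.

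The organs differed in another way at each age. At E20, 4 of the 7 factors were higher in intestine than in lung and none was lower, where 8.21% of all genes were higher and 7.91% lower, 16.1% in all. The organs did not overlap for these 4 and for Klf5, as for 34.1% of all genes. Hnf4a was 6.16 higher (SE 0.14, limma adjusted p = 2.84e-33), Cdx2 5.55 (SE 0.12, adjusted p = 9.45e-35), Gata4 2.94 (SE 0.13, adjusted p = 9.46e-23) and Cdx1 1.40 (SE 0.068, adjusted p = 8.80e-22). The differences of Klf5 (0.81, adjusted p = 1.46e-11), Gata5 (0.27, adjusted p = 0.00589) and Gata6 (-0.22, adjusted p = 0.127) lay under the 2-fold minimum. Other Klf5 probe sets differed in this comparison: 1385961_at was 1.45 higher in intestine (SE 0.13, adjusted p = 1.07e-12), past the minimum and without overlap, while 1368363_at was 0.76 higher and overlapped between organs. With Hnf4a dim in lung, its difference depends on the background level, and it was 5.51 with dim values raised to the lower quartile.

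At E16, 2 factors were higher in intestine and 2 lower, where 3.0% of all genes were higher and 2.13% lower, 5.13% in all. The organs did not overlap for these 4 and for Gata6, as for 19.3% of all genes. Hnf4a was 2.12 higher (SE 0.14, limma adjusted p = 2.44e-16) and Cdx2 1.20 higher (SE 0.12, adjusted p = 1.22e-11) in intestine. The Hnf4a sets 1369289_at and 1382496_at were 0.55 and 0.44 higher, under the 2-fold minimum, and with its sets averaged Hnf4a was 1.04 higher and still called. Gata5 was 2.21 lower in intestine than in lung (SE 0.089, adjusted p = 1.27e-23) and Gata4 1.16 lower (SE 0.13, adjusted p = 1.01e-09). The Gata4 call was lost with its probe sets averaged (-0.44) and without the 4 E16 lung arrays that carried heart transcripts (-0.99), whereas Gata5 was -2.27 without them. Against a 2-fold change as the null, Cdx2 and Gata4 were not called (adjusted p = 1 for each). Gata6 (-0.87) and Klf5 (0.65) lay under the 2-fold minimum, and the second Gata6 probe set ran the other way (0.34). The median of all genes lay at 0.11 in this comparison, at 0.0020 with quantile normalization and at -0.043 with arrays centred. With arrays centred Gata6 stood at -1.02 and was called.

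The share of epithelium in the tissue bears on all these values, since in whole organs fewer cells of a type and less RNA per cell cannot be told apart. Epithelial genes (Epcam, Cdh1, Krt8, Krt18, Krt19, Esrp1 and Cldn7, 7 measured of 7 listed) averaged 12.26 to 12.60 in E20 intestine and 8.76 to 9.63 in E16 intestine. In lung they averaged 11.03 to 11.44 at E20 and 9.17 to 9.71 at E16. Of all genes 8.79% rose in intestine and 7.15% in lung. All 7 epithelial genes rose in intestine, by 1.48 (Krt19) to 4.61 (Epcam, the epithelial adhesion molecule), and 6 of 7 rose in lung. Their mean rose by 3.18 in intestine and 1.71 in lung. The rises of Cdx2, Hnf4a, Gata4, Gata5 and Klf5 in intestine thus lay within the range of these genes, and that of Cdx1 below it.

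Set against the mean of the epithelial genes on the same array, the factors separated into groups. In intestine the change of Cdx2 exceeded theirs by 1.13 (SE 0.086) and that of Hnf4a by 0.99 (SE 0.089), and in both the ages still did not overlap. For Hnf4a this rests on 1392969_at: with its probe sets averaged it rose by 1.94, less than the epithelial mean (3.18). Gata4 (0.19, SE 0.084) and Klf5 (-0.12, SE 0.072) overlapped between ages on this scale, while Cdx1 (-2.06), Gata5 (-1.31) and Gata6 (-2.49) were lower at E20. In lung the change of Klf5 exceeded that of the epithelial genes by 1.19 (SE 0.072), without overlap. Gata4 (-2.44), Gata5 (-2.32), Cdx1 (-1.95) and Gata6 (-1.67) were lower at E20 in lung on this scale. Cdx2 and Hnf4a are not compared in this way in lung, where both were dim at both ages. The value of Gata4 in intestine rests on a level at E16 near the lower quartile, and on 1387894_at, since with both sets averaged Gata4 rose by 1.58. Cdx1 and Gata5 lay below the median of all values on every E16 intestine array, with means of 7.13 and 7.11. Cdx1 on every lung array and Gata4 on every E20 lung array lay below it too. Background signal was not separated from such low values, so they do not show a fall per epithelial cell. Nor do the values of Gata5 and Gata6 in lung, where both lay above that median on every array. Before the epithelial mean, which rose by 1.71 in lung, was subtracted, they changed by -0.62 and 0.034 there. Gata6 in intestine changed by 0.68 before subtraction. GATA factors also work outside epithelium, and which cells gave their signal was not tested. These values are descriptions and carry no test.

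**Figure D4:**
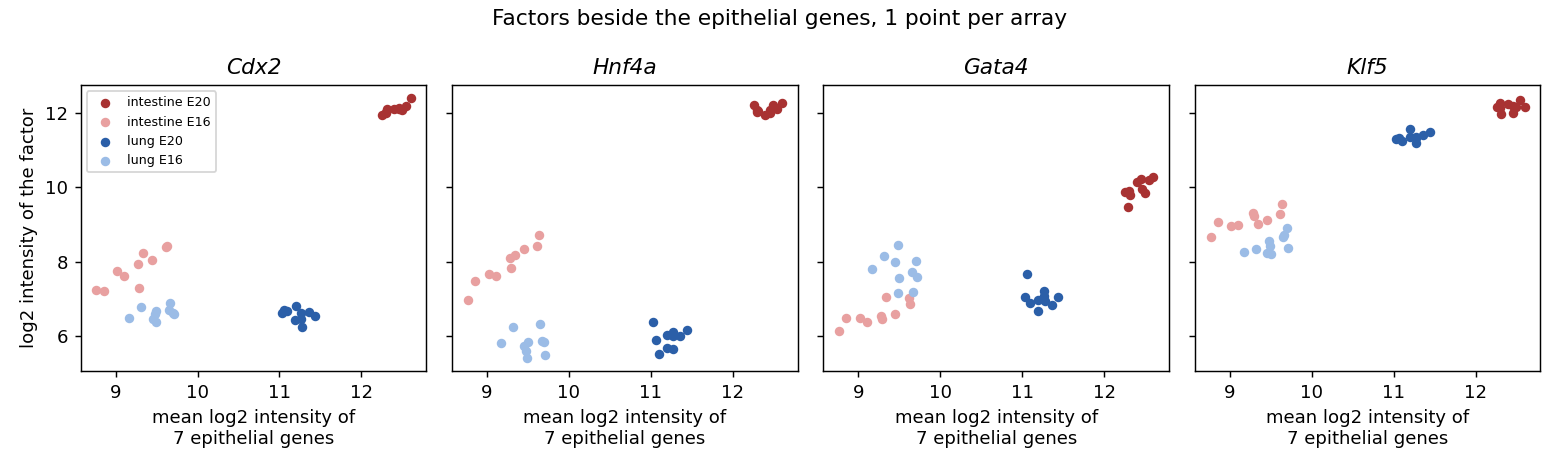
Log2 intensity of Cdx2, Hnf4a, Gata4 and Klf5 on each array against the mean log2 intensity of 7 epithelial genes on the same array, coloured by group (n = 10 arrays each). E20 lung reaches 11.03 to 11.44 on the horizontal axis without Cdx2 or Hnf4a leaving the level of E16 lung, and among the E16 intestine arrays Cdx2 and Hnf4a are highest where the epithelial genes are highest.

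Within E16 intestine the same arrays stood high in epithelial genes, Cdx2 and Hnf4a. Replicates 3, 4, 6 and 8 held the highest levels of epithelial genes (9.45, 9.34, 9.63 and 9.61), of Cdx2 (8.06, 8.23, 8.42 and 8.40) and of Hnf4a (8.34, 8.19, 8.71 and 8.42). Replicates 2 and 5 held the lowest of all 3, with epithelial genes at 8.85 and 8.76, Cdx2 at 7.20 and 7.23, and Hnf4a at 7.47 and 6.97. Gata4 was also highest in replicates 3, 4, 6 and 8 (6.58, 7.05, 6.86 and 7.03) and lowest in replicate 5 (6.13). The remaining factors did not all share this order. Gata6 was lowest in replicate 8 (7.84) and highest in replicate 9 (9.29), Cdx1 was lowest in replicate 8 (6.84), and Gata5 was lowest in replicate 4 (6.82) and highest in replicate 9 (7.45). Pancreas transcripts were raised in replicates 6 and 8 of the 4, and their part in these values was not tested.

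Genes known from mouse or human work as targets of CDX and HNF4 factors rose with them in intestine. There 8.79% of all genes rose and 6.26% fell. Of 10 measured genes of the CDX list 9 rose and 1 fell, with a median change of 4.28 against -0.086 over all genes. They included the brush border protease Mep1a (6.60), the cadherin Cdh17 (5.71), the tight junction protein Cldn2 (5.24) and the galectin Lgals4 (4.78). The one that fell was Car1 (-3.01), a carbonic anhydrase that is also abundant in red cells. Of 9 measured genes of the HNF4 list all 9 rose, with a median of 6.55, led by Apoa1 (7.52), Mttp, which loads lipid onto apolipoprotein B (7.51), Apoa4 (7.19) and Apoc2 (7.13). In lung none of either list rose and 1 of each fell, Car1 (-1.33) and Apoa1 (-1.36), where 7.15% of all genes rose and 4.63% fell.

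Of 8 measured genes of the gut GATA list 5 rose in intestine (median 2.53), led by the fatty acid binding proteins Fabp2 (6.88) and Fabp1 (6.55), the sodium-proton exchanger Slc9a3 (4.69) and the bile acid transporter subunit Slc51a (3.56). The ileal genes Slc10a2 and Fabp6, which GATA4 holds back in mouse proximal gut, were dim and changed by 0.55 and 0.16. No gene of this list was called in lung (median -0.0026). Of all genes 15.1% were called in intestine, 8.79% as higher, and 11.8% in lung. Of 6 cell cycle and growth genes known as KLF5 targets none was called in intestine (median -0.12), and Ccnb1 fell in lung (-1.20; median of the list -0.71). The GATA list shares Fabp1 with the HNF4 list and the sucrase gene Si with the CDX list. Cdh17 and Lgals4 of the CDX list, Vil1 of the HNF4 list and Fabp2 of the GATA list are also the intestinal markers used above. All 7 epithelial genes rose in intestine too (median 2.92), and the part of epithelial share in the rises of these lists was not tested.

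**Figure D5:**
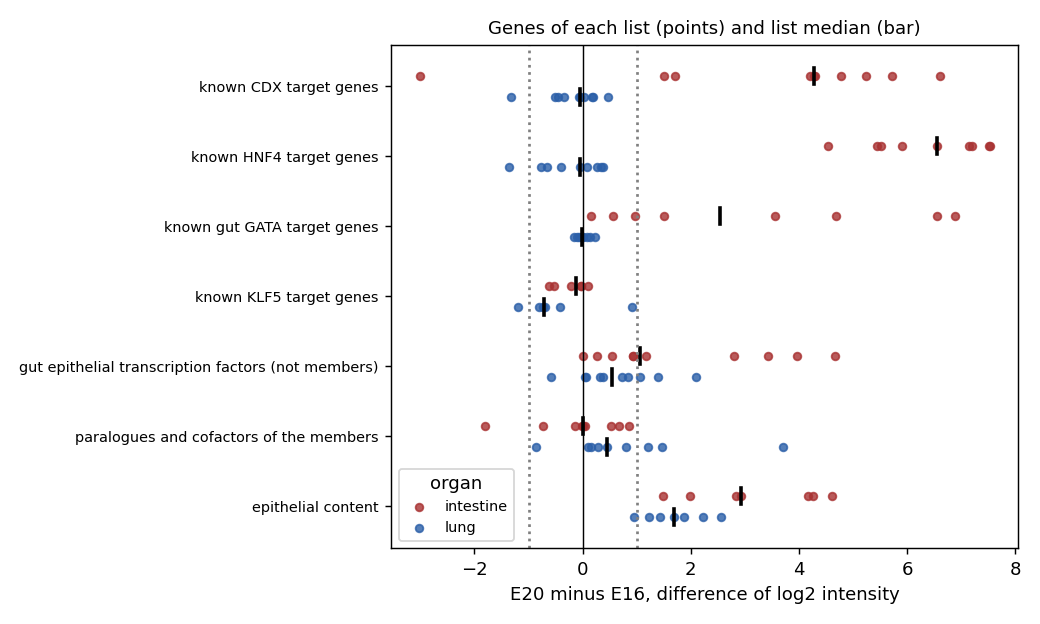
Difference of log2 intensity between E20 and E16 in intestine (red, upper row) and lung (blue, lower row) for each measured gene of the lists (points), with the list median as a bar and dotted lines at the 2-fold minimum. The CDX and HNF4 lists have medians of 4.28 and 6.55 in intestine and of -0.050 and -0.051 in lung, and the KLF5 list has medians of -0.12 in intestine and -0.71 in lung.

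Of all genes 8.79% rose and 6.26% fell in intestine (median -0.086), and 7.15% rose and 4.63% fell in lung (median -0.0064). Among 10 other measured transcription factors of gut epithelium 5 rose in intestine and none fell (median 1.05). They were led by Creb3l3, a factor of lipid metabolism (4.67), Elf3, an epithelial ETS factor (3.97), Prdm1, which marks fetal gut epithelium in mouse (3.42), and the nuclear receptor Nr5a2 (2.81). In lung 3 of the 10 rose, Elf3 (2.10), Klf4 (1.39) and Prdm1 (1.05). Foxa2, an endodermal forkhead factor, was lower in intestine than in lung at E20 (-3.96) and at E16 (-4.05). Of 9 paralogues and cofactors none rose in intestine and 1 fell, Zfpm2, a partner of GATA factors (-1.80). In lung 3 of these rose, Klf15 (3.71), Klf2 (1.47) and Klf6 (1.21).

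Stomach genes bear on the identity of the dissected gut, since Hnf4a and Gata4 are also made there. None of 11 measured genes was called with age in either organ, where 15.1% of all genes were in intestine and 11.8% in lung. The mean of the 11 lay between 6.82 and 7.34 in E20 intestine and between 7.04 and 7.34 in E16 intestine. Sox2, the foregut factor, averaged 8.96 in E20 intestine and 9.67 in E16 intestine, and 9.34 in E20 lung and 9.04 in E16 lung. Which cells of the whole organs gave the Sox2 signal was not tested. Mesenchymal genes fell in 2 of 7 cases in intestine, Twist1 (-1.99) and Pdgfrb (-1.29), and in none in lung. Of all genes 6.26% fell in intestine and 4.63% in lung.

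The genes most like each factor were found by the root mean square difference over the 40 arrays between centred log2 values, among 10847 genes above the median of all values in at least 1 group. For Cdx2 they were Clrn3 (0.25), Tm4sf20 (0.27) and the guanylin receptor Gucy2c (0.30), which is also in the CDX list. For Hnf4a they were the galectin Lgals2 (0.26), Aadac (0.38) and Lypd8 (0.47), and the distance between Cdx2 and Hnf4a themselves was 0.45, the smallest of the 21 pairs of members. For Klf5 they were Irak2 (0.37), Ndrg1 (0.38) and Cdkl2 (0.38), all higher at E20 in both organs. For Gata4 they were Tkfc (0.42), Gnpda1 (0.43) and Ccdc93 (0.44), and for Gata5 Rab15 (0.38), the lipid droplet protein Plin2 (0.39) and Fam110c (0.43). For the flatter Cdx1 and Gata6 the nearest were Gpr89b (0.16) and Usf3 (0.24), with Acsf3 (0.17) and Ncln (0.18), and Casp6 (0.27) and Raph1 (0.29) after them; small distances are common among genes that change little.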

How the data were processed

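Deposited values were normalized probe set intensities on a linear scale for 31099 probe sets on 40 arrays, per the series' value table; the submitters' processing notes name RMA, without version. The labels do not say if both organs went through RMA jointly. No detection calls were used, and the number of arrays limits the precision. Log2 was taken here. Probe sets were named from the platform annotation of the series: besides 57 controls, 20826 carried 1 gene symbol, 436 more than 1 and 9831 no symbol, and 20758 of the first were matched to RefSeq GRCr8 by Entrez identifier for names.

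A mean per group was fitted with limma 3.58.1 in R 4.3.3 to all 40 arrays, without covariates, two-sided, with Benjamini-Hochberg adjustment over the 14217 genes of a contrast; the fit was tested on simulated data. The members, the gene lists, the motifs and the arrays to leave out were chosen with earlier results of these data known. Named genes were all members, up to 4 called genes of a list with the largest change, the epithelial and tissue marker genes, and the 3 genes nearest to each member; other names were chosen after their values were seen.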

Additional observations from a re-analysis of the deposited data

Results flagged for a closer look

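For 5 factors the age change differed between intestine and lung by the test of the difference itself. The change in intestine minus that in lung was 4.35 for Cdx2, 4.10 for Gata4, 4.05 for Hnf4a, 2.49 for Gata5 and 1.37 for Cdx1 on the log2 scale. With probe sets averaged it was 1.92 for Gata4 and 1.79 for Hnf4a. For Gata4 and Gata5 the intestine value was higher at E20 (3.37 and 1.87) while the lung value was lower by less than the 2-fold minimum (-0.73 and -0.62). No array lay apart from its group by Dixon's criterion among the 28 combinations of factor and group.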

How the results depend on the processing

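Each comparison was repeated under up to 14 alternatives, of which leaving out the E16 lung arrays with heart transcripts (not applied to the intestine age change) and leaving out the arrays highest in liver genes within their groups were chosen after seeing the data. Leaving out the liver arrays changed no call of a member. Leaving out the 7 arrays chosen for liver, pancreas or mesothelium transcripts changed none either. Without those 7 arrays the change in intestine was 4.40 for Cdx2, 1.96 for Gata5 and 0.73 for Gata6. No member reversed its sign in a call. With every probe set as a feature the counts of called features were 3665 for intestine with age (2140 genes in the reported fit), 2802 for lung with age (1674), 4255 for the difference of the age changes (2503), 1292 for intestine against lung at E16 (730) and 3907 at E20 (2292), since more features were tested. Against a 2-fold change as the null the counts were 1037 for lung with age, 1522 for the difference and 405 between organs at E16, and the members called between organs at E16 were 2 in place of 4. Averaging probe sets lowered the rise in intestine to 1.94 for Hnf4a and 1.58 for Gata4, and the organ difference at E20 to 2.82 and 1.49; at E16 it was 1.04 for Hnf4a. The difference of the age changes was then 1.79 for Hnf4a and 1.92 for Gata4. The replicate block changed no call of a member: Cdx2 changed by 4.31 in intestine and Klf5 by 2.89 in lung with it, and called genes stayed within 1.5 times. Deviations of same-numbered intestine and lung arrays correlated at a median of -0.092 at E20 and 0.27 at E16. They exceeded 0.1 in 4 of 10 pairs at E20 and 7 of 10 at E16, and 1 of 10 intestine arrays at E20 and 6 of 10 at E16 correlated best with the lung array of their own number. Not every pair exceeded 0.1, and the labels do not pair arrays by embryo, so the reported fit has no block. The design text's 10 embryos an age, with 10 arrays of each organ, leaves shared embryos possible, and for E16 the correlations are a further hint. If embryos were shared, the errors and p-values between organs and for the difference of the age changes ignore a pairing. Scaling alternatives moved the median of all genes by over 0.1 between organs at E16 (0.11, against 0.0020 with quantile normalization and -0.043 with centred arrays) and for the difference of the age changes (-0.032, against 0.097 with centred arrays). Dim levels limit the folds of Hnf4a and Cdx2 against lung.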
